A study of Mus musculus with 14 samples.

Results

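The SPARC and SMOC family was followed across obstructed and normal mouse kidney. Its 8 members, Smoc1, Smoc2, Sparc, Sparcl1, Spock1, Spock2, Spock3 and Fstl1, were the gene rows whose Ensembl identifier carries one of these mouse symbols, 8 of 47729 genes listed. The 14 libraries of polyadenylated RNA from whole kidney fell into 4 groups by genotype label and state. Obstructed kidney, taken after unilateral ureteral obstruction for 7 days (UUO, in which the ureter on one side is tied and the kidney scars), gave 4 libraries of SMOC2 Transgenic and 4 of wild-type genotype. Untreated kidney, called normal below, gave 3 libraries of each genotype. The labels give neither the promoter nor the cell type that drives the transgene, nor age and sex. Strain appears only in a protocol text on folic acid injection of Balb/c males, which goes against the genotype, treatment and design labels, and no strain is taken from it. The series title speaks of silencing SMOC2 whereas the genotype label reads transgenic, and groups are called transgenic-label and wild-type here. Since no label ties the libraries of a group to separate animals, p-values here reflect only how these libraries vary, and that variation may be technical.

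Proteins of this family are secreted into the extracellular matrix and share a follistatin-like domain, in most members together with a calcium-binding extracellular domain first described in SPARC. SPARC, also called osteonectin, binds collagen and acts in the assembly of collagen fibrils, and SPARCL1 (hevin) is its closest relative. SMOC1 and SMOC2 add thyroglobulin-like domains, and SMOC1 antagonises bone morphogenetic protein signalling. SPOCK1, SPOCK2 and SPOCK3, the testicans, are proteoglycans. FSTL1 is a secreted glycoprotein that binds bone morphogenetic proteins and is made by fibroblasts and other mesenchymal cells. SMOC2 is known in kidney as a matrix protein that rises in fibrosis and acts on fibroblasts.

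The members lie on 8 different chromosomes of build mm10. Smoc2 (ENSMUSG00000023886) spans chromosome 17 from 14279506 to 14404790 on the plus strand, and Smoc1 (ENSMUSG00000021136) chromosome 12 from 81026808 to 81186414 on the plus strand. Sparc (ENSMUSG00000018593) spans chromosome 11 from 55394500 to 55423183 on the minus strand, and Sparcl1 (ENSMUSG00000029309) chromosome 5 from 104079111 to 104113733 on the minus strand. Spock1 (ENSMUSG00000056222) spans chromosome 13 from 57421195 to 57908332 on the minus strand, Spock2 (ENSMUSG00000058297) chromosome 10 from 60106219 to 60135198 on the plus strand, and Spock3 (ENSMUSG00000054162) chromosome 8 from 62951009 to 63357103 on the plus strand. Fstl1 (ENSMUSG00000022816) spans chromosome 16 from 37776873 to 37836514 on the plus strand. No other gene of the GENCODE M21 annotation shares exon bases with any of them.

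The bases upstream of 2 testican genes are shown because these paralogues stood apart in the data described below. Spock2 was higher in obstructed kidney, whereas Spock1 had few reads in every group. Both sequences come from RefSeq promoter windows of build GRCm38.p6 and are given from 5′ to 3′ on the gene's own strand, stopping before the first annotated exon. They lie at chr10:60106007-60106218 on the plus strand for Spock2 and at chr13:57908333-57908582 on the minus strand for Spock1, and capitals mark a match to the SP1 motif GGGCGG on the opposite strand.
Spock2: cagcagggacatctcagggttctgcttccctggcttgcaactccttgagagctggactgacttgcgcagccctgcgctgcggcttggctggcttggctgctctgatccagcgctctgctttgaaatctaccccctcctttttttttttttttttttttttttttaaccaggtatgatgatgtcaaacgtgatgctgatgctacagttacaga
Spock1: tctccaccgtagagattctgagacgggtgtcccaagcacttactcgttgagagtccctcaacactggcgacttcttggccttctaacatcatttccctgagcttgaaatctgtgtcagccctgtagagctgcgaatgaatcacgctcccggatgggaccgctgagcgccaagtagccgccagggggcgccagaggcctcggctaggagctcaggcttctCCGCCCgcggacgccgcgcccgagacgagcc
Such windows matched 5 of the 8 members, namely Sparc, Spock1, Spock2, Spock3 and Fstl1. The 250 upstream bases of each window were searched for 5 motifs on both strands, and the same search over all 32851 windows gave the share that holds each. The AP-1 motif TGACTCA was in 4.46% of all windows. The TEAD motif GGAATG was in 12.6% of them. The SP1 motif GGGCGG was in 32.7% and the TATA box, searched as TATAAA, in 12.4%. The string GGAGGA was in 29.2%. No motif contains another. Neither the Sparc nor the Spock2 window held any of them. The Spock1 window held 1 SP1 match, 26 bases before the start, and the Fstl1 window held 2 SP1 matches and 3 GGAGGA matches. Spock3 had 2 windows, of which one held no match and the other held 2 GGAGGA matches, the nearest 22 bases before the start. These are matches of letters and say nothing of what binds there.

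Libraries of obstructed kidney held 21584036 to 27670785 counts under the transgenic label and 20667885 to 26171382 counts in wild type. Libraries of normal kidney held 19483994 to 23994849 counts under the transgenic label and 22104417 to 30033405 counts in wild type. Kidney tubule markers (Lrp2, Slc34a1, Umod, Slc12a3, Aqp2 and Atp6v1b1) were detected in every group. Levels below are in CPM, which relates a gene's counts to the total of its library after scaling by trimmed mean of M-values, and levels of different genes are compared as CPM per kilobase of merged exon length. A gene is said to have risen or fallen only at an adjusted p under 0.05 in edgeR's quasi-likelihood test, with Benjamini-Hochberg adjustment over the 17926 genes that passed the filter on low counts. Of the 8 members 7 passed that filter. Spock1 did not.

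Smoc2, the gene named by the genotype label, had 124, 89.9, 83.9 and 87.1 CPM in transgenic-label UUO libraries 1 to 4, against 27.8, 26.9 and 10.6 CPM in transgenic-label normal libraries 1, 3 and 4. Wild-type kidney had 150, 131, 158 and 148 CPM in UUO libraries 1 to 4, against 12.6, 19.7 and 43.3 CPM in normal libraries 1 to 3. Every UUO library lay above every normal library of its genotype label. All 4 transgenic-label UUO libraries lay below all 4 wild-type UUO libraries, and the normal libraries of both labels overlapped. In UUO kidney the libraries labelled transgenic thus held no excess of counts in the mouse Smoc2 row. In normal kidney they averaged 21.8 CPM against 25.2 CPM in wild type, a direction that depended on single libraries, so an excess there is undetermined. Whether transcripts of the transgene would be counted in that row is not known from the labels. Any direction between genotypes below is one between labels.

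Smoc2 rose 4.43-fold after obstruction under the transgenic label (log2 2.15 ± 0.38 SE, 95% interval 1.34 to 2.96, adjusted p = 1.93e-04, edgeR). In wild-type kidney it rose 5.80-fold (log2 2.54 ± 0.38, interval 1.72 to 3.35, adjusted p = 4.93e-05, edgeR). Wild-type normal library 3, the highest normal library for Smoc2, carried weight in that value, and without it the wild-type log2 change was 3.19. The same library had the highest summed level of fibroblast markers among normal libraries, 149 CPM. In bulk tissue, more cells of a type and more RNA per cell cannot be told apart. Among tested genes with a known exon length, Smoc2 ranked at the 79.9th percentile of CPM per kilobase in transgenic-label UUO and the 87.9th in wild-type UUO kidney. In transgenic-label and wild-type normal kidney it ranked at the 46.9th and 49.3rd percentile.

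Smoc1, its paralogue, was a low gene throughout. It had 1.49, 1.43, 2.23 and 3.13 CPM in transgenic-label UUO libraries 1 to 4, against 0.438, 0.444 and 0.312 CPM in the transgenic-label normal libraries. Wild-type UUO libraries 1 to 4 had 2.37, 1.85, 2.12 and 0.855 CPM, against 0.661, 0.112 and 0.506 CPM in wild-type normal libraries 1 to 3. UUO and normal libraries did not overlap under either label. These levels rest on sums of 224 counts in transgenic-label UUO, 21 in transgenic-label normal, 201 in wild-type UUO and 30 in wild-type normal kidney. Smoc1 rose 5.15-fold under the transgenic label (log2 2.37 ± 0.50 SE, adjusted p = 9.22e-04) and 4.07-fold in wild-type kidney (log2 2.02 ± 0.48 SE, adjusted p = 0.00214, edgeR).

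Sparc was the most abundant member in all 4 groups. It had 1385, 1401, 1456 and 1238 CPM in transgenic-label UUO libraries 1 to 4, against 201, 243 and 144 CPM in the transgenic-label normal libraries. Its level was 1593, 1165, 1343 and 1031 CPM in wild-type UUO libraries 1 to 4, against 163, 308 and 331 CPM in wild-type normal libraries 1 to 3. The lowest UUO library stood at 1031 CPM and the highest normal library at 331 CPM. Sparc rose 6.99-fold under the transgenic label (log2 2.80 ± 0.25 SE, interval 2.26 to 3.35, adjusted p = 4.18e-07). In wild-type kidney it rose 4.80-fold (log2 2.26 ± 0.25 SE, interval 1.73 to 2.79, adjusted p = 2.67e-06, edgeR). It ranked at the 99.7th and 99.6th percentile of genes by CPM per kilobase in transgenic-label and wild-type UUO kidney, and at the 93.8th and 95.7th percentile in transgenic-label and wild-type normal kidney.

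Sparcl1 moved least among the members that rose. It had 105, 116, 120 and 80.7 CPM in transgenic-label UUO libraries 1 to 4, against 69.1, 82.5 and 54.2 CPM in the transgenic-label normal libraries. In wild-type kidney Sparcl1 had 161, 129, 202 and 200 CPM in UUO libraries 1 to 4, against 44.9, 52.5 and 83.0 CPM in normal libraries 1 to 3. Under the transgenic label, UUO library 4 lay below normal library 3, so the groups overlapped, whereas the wild-type groups did not. The rise was 1.54-fold under the transgenic label (log2 0.62 ± 0.22 SE, interval 0.14 to 1.10, adjusted p = 0.0255) and 2.87-fold in wild-type kidney (log2 1.52 ± 0.23 SE, interval 1.03 to 2.02, adjusted p = 5.4e-05, edgeR). The transgenic-label call rested on single libraries. It was lost without UUO library 2 (adjusted p = 0.0572), UUO library 3 (0.0608), normal library 1 (0.0595) or normal library 4 (0.118, log2 0.48, edgeR).

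Fstl1 stood higher in every UUO library than in any normal library. It had 322, 269, 280 and 235 CPM in transgenic-label UUO libraries 1 to 4, against 39.2, 61.2 and 48.1 CPM in the transgenic-label normal libraries. Wild-type UUO libraries 1 to 4 had 364, 268, 327 and 255 CPM, against 57.3, 45.3 and 72.8 CPM in wild-type normal libraries 1 to 3. The lowest UUO library stood at 235 CPM and the highest normal library at 72.8 CPM. Fstl1 rose 5.58-fold under the transgenic label (log2 2.48, interval 2.05 to 2.91, adjusted p = 1.51e-07) and 5.18-fold in wild-type kidney (log2 2.37, interval 1.95 to 2.80, adjusted p = 2.38e-07, edgeR).

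The testican genes differed among themselves. Spock2 had 14.6, 11.8, 12.4 and 12.0 CPM in transgenic-label UUO libraries 1 to 4, against 2.82, 1.39 and 1.46 CPM in the transgenic-label normal libraries. Wild-type kidney had 12.4, 17.9, 15.5 and 11.0 CPM in UUO libraries 1 to 4, against 1.76, 1.68 and 1.67 CPM in normal libraries 1 to 3. Every UUO library stood above every normal library. Spock2 rose 6.79-fold under the transgenic label (log2 2.76, interval 2.24 to 3.29, adjusted p = 3.41e-07). In wild-type kidney it rose 8.33-fold (log2 3.06, interval 2.53 to 3.58, adjusted p = 1.64e-07, edgeR), the largest fold of any member tested there.

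Spock3 sat near the detection limit. It had 0.218, 0.436, 0.389 and 0 CPM in transgenic-label UUO libraries 1 to 4, against 0.188, 0.166 and 0.312 CPM in the transgenic-label normal libraries. Wild-type UUO libraries 1 to 4 had 0.431, 1.01, 0.389 and 2.52 CPM, against 0.970, 0.559 and 0.428 CPM in wild-type normal libraries 1 to 3. Transgenic-label UUO library 4 held no Spock3 count, which allows up to 0.122 CPM, taken as 3 counts and covering counting error only. UUO and normal libraries overlapped under both labels. Neither change passed the test, at log2 0.22 under the transgenic label (interval -1.78 to 2.22, adjusted p = 0.852) and log2 0.71 in wild-type kidney (interval -0.79 to 2.21, adjusted p = 0.395, edgeR). The direction depended on single libraries. The transgenic-label value was -0.11 without UUO library 2 and -0.03 without UUO library 3, and the wild-type value was -0.09 without UUO library 4.

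Spock1 had few reads in any library. Its counts were 1, 2, 2 and 4 in transgenic-label UUO libraries 1 to 4, against 5, 8 and 6 in the transgenic-label normal libraries. In wild-type kidney they were 0, 4, 0 and 0 in UUO libraries 1 to 4, against 9, 2 and 10 in normal libraries 1 to 3. In CPM this was 0.0311 to 0.162 in transgenic-label UUO against 0.312 to 0.444 in transgenic-label normal kidney, and 0 to 0.135 in wild-type UUO against 0.112 to 0.397 in wild-type normal kidney. The transgenic-label groups did not overlap, and the wild-type groups did, through UUO library 2 and normal library 2. The libraries at 0 allow up to 0.106 to 0.128 CPM. With the filter removed, over 31546 genes, Spock1 was at log2 -2.02 under the transgenic label (interval -3.66 to -0.38, adjusted p = 0.0516) and at log2 -2.92 in wild-type kidney (interval -4.73 to -1.11, adjusted p = 0.0115, edgeR). These fitted values rest on sums of 9 against 19 counts and 4 against 21 counts and depend on the prior count.

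**Figure D1:**
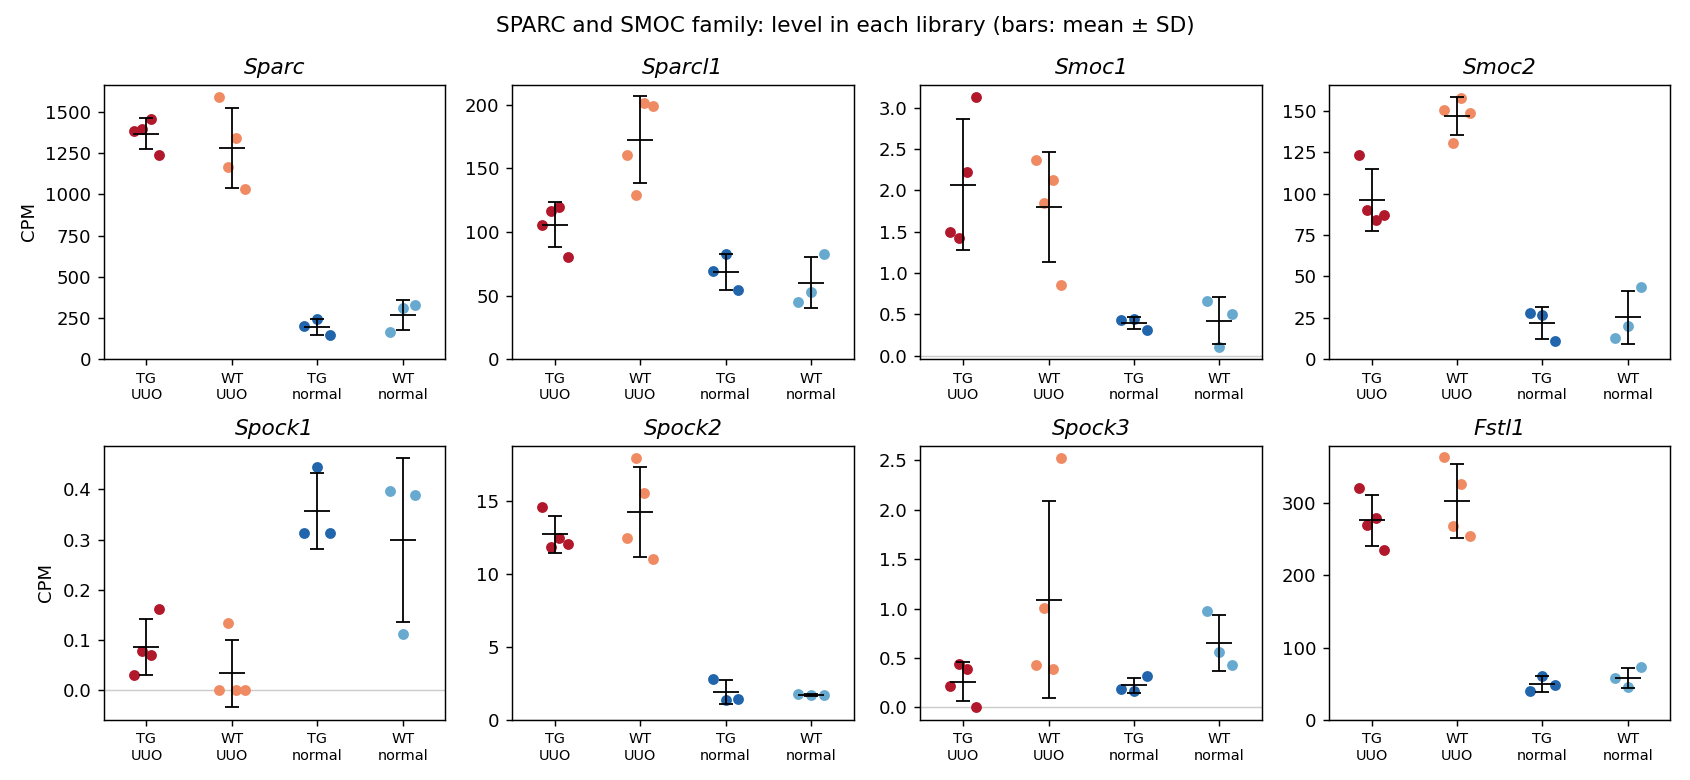
Level of each family member in CPM (y axes) in the 4 groups (x axes; TG, transgenic label; WT, wild type), with 1 point per library and bars for the mean ± SD. For Sparc the UUO libraries sit between 1031 and 1593 CPM and the normal libraries between 144 and 331 CPM, while Spock1 and Spock3 stay below 3 CPM in every library.

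Of the 7 members tested, 6 rose and none fell after obstruction under each label. Across all 17926 genes, 32.5% were higher and 30.4% lower in transgenic-label UUO kidney (62.8% called in either direction), and 31.3% were higher and 29.8% lower in wild-type UUO kidney (61.1% called). Groups did not overlap, with UUO higher, for 5 of the 7 members under the transgenic label against 32.6% of all genes, and for 6 of the 7 in wild-type kidney against 31.3% of all genes. The median log2 change of the 7 members was 2.37 under the transgenic label and 2.26 in wild-type kidney. Over all genes tested the medians were 0.04 and 0.05. Under upper-quartile scaling these 2 medians moved to 0.15 and 0.16, and the 6 members stayed above the threshold under both labels.

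Scaled by exon length, Sparc ranked first in all 4 groups. In transgenic-label UUO kidney, Sparc averaged 362 CPM per kilobase, followed by Fstl1 at 56.3, Sparcl1 at 35.9, Smoc2 at 13.8, Spock2 at 2.30, Smoc1 at 0.592, Spock3 at 0.0431 and Spock1 at 0.0103. Only the neighbours Spock3 and Spock1 overlapped there. In wild-type UUO kidney, Sparc averaged 339 CPM per kilobase, followed by Fstl1 at 61.7, Sparcl1 at 58.8, Smoc2 at 21.1, Spock2 at 2.57, Smoc1 at 0.515, Spock3 at 0.180 and Spock1 at 0.0040. Fstl1 and Sparcl1 overlapped, as did Smoc1 and Spock3.

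In normal kidney Sparcl1 stood above Fstl1. In transgenic-label normal kidney, Sparc averaged 51.8 CPM per kilobase, followed by Sparcl1 at 23.3, Fstl1 at 10.1, Smoc2 at 3.13, Spock2 at 0.341, Smoc1 at 0.114, Spock1 at 0.0426 and Spock3 at 0.0368. Only the last pair overlapped. In wild-type normal kidney, Sparc averaged 70.5 CPM per kilobase, followed by Sparcl1 at 20.5, Fstl1 at 11.9, Smoc2 at 3.62, Spock2 at 0.308, Smoc1 at 0.122, Spock3 at 0.108 and Spock1 at 0.0358. Smoc1 and Spock3 overlapped there.

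Summed over the 8 members, the family reached 471 ± 35.9 CPM per kilobase in transgenic-label UUO kidney (SD, n = 4), against 88.9 ± 20.5 in transgenic-label normal kidney (SD, n = 3). It reached 484 ± 74.8 in wild-type UUO kidney (SD, n = 4), against 107 ± 32.6 in wild-type normal kidney (SD, n = 3). Sparc made up 76.9 ± 1.39% of that sum in transgenic-label UUO against 58.0 ± 2.04% in transgenic-label normal kidney, and 69.8 ± 3.47% in wild-type UUO against 65.3 ± 6.86% in wild-type normal kidney. Sparcl1 made up 7.60 ± 0.80% in transgenic-label UUO against 26.4 ± 0.67% in transgenic-label normal kidney. In wild-type kidney its share was 12.4 ± 3.11% in UUO against 19.2 ± 2.79% in normal libraries. Fstl1 kept between 11.6% and 12.7% and Smoc2 between 2.94% and 4.42% in all group means. The shares of Sparc and of Sparcl1 did not overlap between UUO and normal libraries under the transgenic label, and both overlapped in wild-type kidney.

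**Figure D2:**
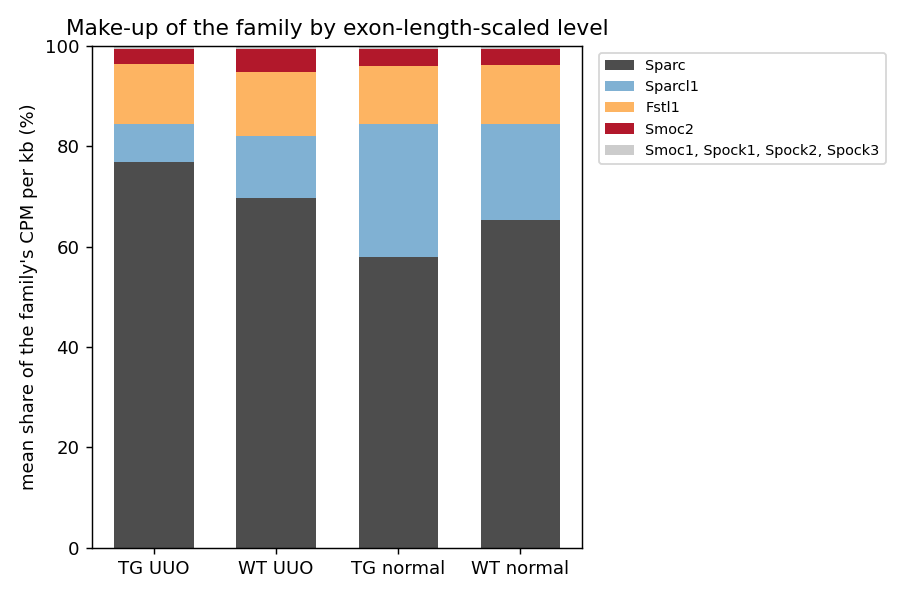
Mean share of each member in the summed CPM per kilobase of the family (y axis, %), by group (x axis). Sparc holds 76.9%, 69.8%, 58.0% and 65.3% and Sparcl1 7.60%, 12.4%, 26.4% and 19.2% in transgenic-label UUO, wild-type UUO, transgenic-label normal and wild-type normal kidney.

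The balance between paralogues was set out as the log2 ratio of their CPM in each library. Sparcl1 over Sparc was -3.72, -3.59, -3.60 and -3.94 in transgenic-label UUO libraries 1 to 4, against -1.54, -1.56 and -1.41 in the transgenic-label normal libraries. In wild-type kidney it was -3.31, -3.17, -2.73 and -2.37 in UUO libraries 1 to 4, against -1.86, -2.55 and -1.99 in normal libraries 1 to 3. The transgenic-label groups were far apart, and the wild-type groups overlapped through UUO library 4 and normal library 2. The ratio fell by 1.48 on the log2 scale after obstruction, as the mean of a fall by 2.21 under the transgenic label and a fall by 0.76 in wild-type kidney. In a two-sided exact permutation test within genotype labels, p was 0.00163 over 1225 arrangements, and 0.00327 adjusted over the 2 pairs tested. The observed split was not the most extreme, since exchanging wild-type UUO library 4 with wild-type normal library 2 gives a larger fall.

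The change of Smoc1 over Smoc2 did not pass the test. The ratio averaged -5.54 ± 0.69 in transgenic-label UUO libraries (SD, n = 4) against -5.39 ± 0.55 in transgenic-label normal libraries (SD, n = 3). It averaged -6.37 ± 0.63 in wild-type UUO libraries against -5.65 ± 1.37 in wild-type normal libraries. The mean change was -0.43, with an exact permutation p of 0.374, also after adjustment over 2 pairs. UUO and normal libraries overlapped under both labels. The low counts of Smoc1 limit the precision of this ratio. A ratio of Spock1 over Spock2 was not tested because Spock1 did not pass the filter.

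**Figure D3:**
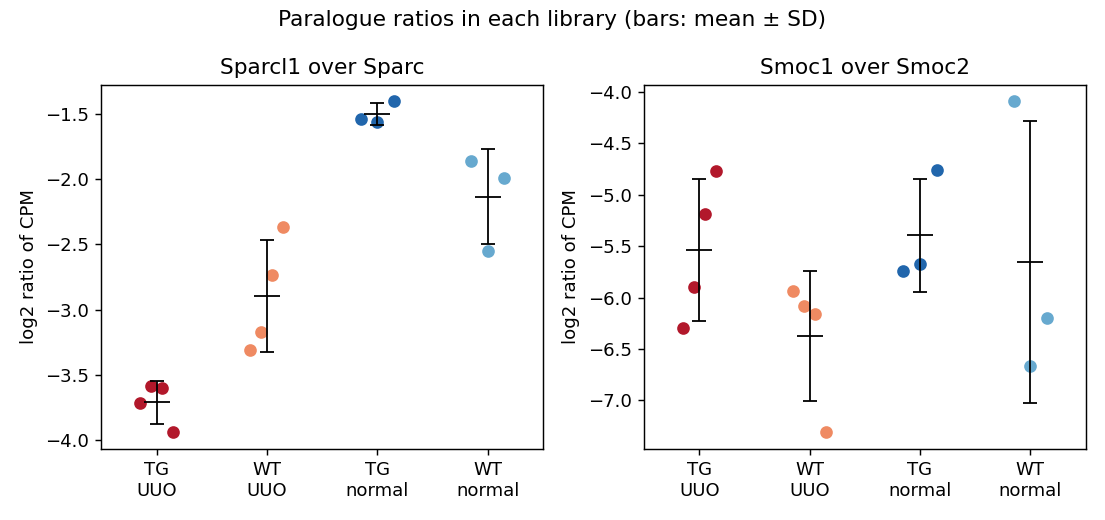
Log2 ratio of CPM between paralogues (y axes) in the 4 groups (x axes), with 1 point per library and bars for the mean ± SD. Sparcl1 over Sparc lies at -3.94 to -3.59 in transgenic-label UUO kidney and at -1.56 to -1.41 in transgenic-label normal kidney, and Smoc1 over Smoc2 overlaps between states.

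Between genotype labels, no member passed edgeR's test in either state. In UUO kidney 0 of 7 members were called by edgeR, against 149 of all genes or 0.831%, and 2 of 7 members had an unadjusted p under 0.05, against 15.2% of all genes. Smoc2 was at log2 -0.61 in transgenic-label over wild-type UUO kidney (interval -1.29 to 0.07, adjusted p = 0.389). Sparcl1 was at log2 -0.71 (interval -1.15 to -0.27, adjusted p = 0.113, edgeR), which DESeq2 called at log2 -0.70 with an adjusted p of 0.0232. For both genes all 4 transgenic-label libraries lay below all 4 wild-type libraries, and 4.43% of all genes showed that order. Sparc was at log2 0.09 (interval -0.36 to 0.55, adjusted p = 0.877) and Fstl1 at log2 -0.13 (interval -0.49 to 0.23, adjusted p = 0.763, edgeR).

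The remaining members of the UUO comparison were Spock2 at log2 -0.16 (adjusted p = 0.742), Smoc1 at 0.19 (adjusted p = 0.860) and Spock3 at -2.01 (interval -3.49 to -0.53, adjusted p = 0.178, edgeR). Spock3 summed to 29 counts in transgenic-label and 112 in wild-type UUO kidney, and the groups overlapped. Wild-type UUO library 4 held 59 of those 112 counts, and without it the Spock3 value was -1.21 (adjusted p = 0.445, edgeR). The sign of the Smoc1 value changed to -0.07 without transgenic-label UUO library 4 and to -0.04 without wild-type UUO library 4.

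In normal kidney 0 of 7 members were called by edgeR, against 5 of all genes or 0.0279%. None of the 7 had an unadjusted p under 0.05, against 12.8% of all genes, and DESeq2 called none of them. Sparc was at log2 -0.45 in transgenic-label over wild-type normal kidney (interval -0.97 to 0.08, adjusted p = 0.469), and Smoc2 at -0.22 (interval -1.05 to 0.61, adjusted p = 0.850, edgeR). The Smoc2 value had the opposite sign without transgenic-label normal library 4, at 0.11, and without wild-type normal library 3, at 0.43. Spock3 was at log2 -1.52 (interval -3.48 to 0.45, adjusted p = 0.505), with 0.166 to 0.312 CPM in transgenic-label against 0.428 to 0.970 CPM in wild-type libraries. It was the member whose groups did not overlap there, on 12 against 43 counts, and 8.01% of all genes were lower without overlap.

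The difference between the obstruction responses, transgenic label minus wild type, passed for none of the 7 members, and edgeR called 0 genes in all (0% of those tested). An unadjusted p under 0.05 was reached by 1 member, Sparcl1, and by 1154 or 6.44% of all genes, and DESeq2 called 25 genes. Sparcl1 was at log2 -0.90 (interval -1.57 to -0.23, adjusted p = 0.673), Sparc at 0.54 (interval -0.15 to 1.24, adjusted p = 0.812) and Smoc2 at -0.39 (interval -1.46 to 0.68, adjusted p = 0.908, edgeR). The Smoc2 value was -1.04 without wild-type normal library 3 (adjusted p = 0.882, edgeR). Apart from that of Fstl1 (-0.45 to 0.66), the intervals leave room for differences of more than 1 on the log2 scale. Likeness of the responses is thus not shown either.

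**Figure D4:**
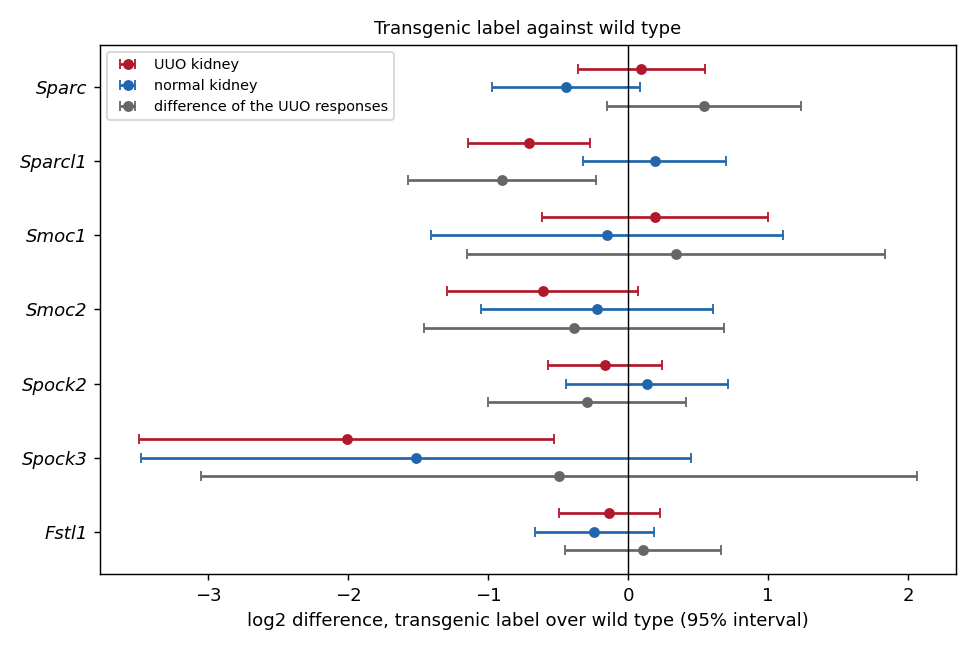
Log2 difference of each tested member, transgenic label over wild type (x axis), with 95% intervals from edgeR, in UUO kidney, in normal kidney and for the difference of the UUO responses. Sparcl1 and Spock3 in UUO kidney and Sparcl1 in the difference of responses have intervals below 0, and none passed adjustment over all genes.

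Genes known to work with the family were described from lists of its ligands, receptors and enzymes. For comparison, 32.5% of all genes rose and 30.4% fell under the transgenic label, and 31.3% rose and 29.8% fell in wild-type kidney. Of 17 matrix and growth factor ligands, 13 rose and 4 fell under the transgenic label, and 13 rose and 3 fell in wild-type kidney, with median log2 changes of 2.06 and 1.74. Col1a1, a chain of the collagen that SPARC binds, averaged 1141 CPM in transgenic-label UUO against 27.6 CPM in transgenic-label normal kidney, and 804 CPM in wild-type UUO against 36.2 CPM in wild-type normal kidney (log2 5.37 and 4.47). The basement membrane collagen chains Col4a1 and Col4a2 rose by log2 2.28 and 2.20 under the transgenic label and 1.81 and 1.79 in wild-type kidney. The growth factor genes Pdgfb and Tgfb1 rose by log2 2.06 and 2.34 under the transgenic label and 2.17 and 1.74 in wild-type kidney. Vegfa, encoding an endothelial growth factor that SPARC binds, fell by 1.68 under the transgenic label and by 1.34 in wild-type kidney on the log2 scale. The other ligands that fell were Bmp7 (log2 -1.67 under the transgenic label and -1.49 in wild-type kidney), Bmp4 (-0.43 and -0.55) and, under the transgenic label, Vtn (-2.81), named after their values were seen. Vtn was a low gene, with sums of 17 counts in transgenic-label UUO and 60 in transgenic-label normal kidney.

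Of 15 receptors and effectors, 12 rose and none fell under the transgenic label, and 11 rose and 1 fell in wild-type kidney, with median log2 changes of 0.85 and 0.86. Vcam1, an adhesion molecule that SPARC binds on endothelial cells, averaged 615 CPM in transgenic-label UUO against 13.6 CPM in transgenic-label normal kidney, and 656 CPM in wild-type UUO against 11.2 CPM in wild-type normal kidney. Cd14 and Tlr4, encoding innate immune receptors that FSTL1 engages, rose by log2 4.52 and 1.87 under the transgenic label and 3.78 and 1.79 in wild-type kidney. The integrin subunit genes Itgb3, Itgb1 and Itgb5 rose by log2 2.57, 1.06 and 0.85 under the transgenic label and by 2.06, 0.86 and 0.90 in wild-type kidney. Dip2a, encoding a receptor for FSTL1 and named after its value was seen, was the gene that fell in wild-type kidney, at log2 -0.19.

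Of 10 proteases and cross-linking enzymes, 8 rose and none fell under the transgenic label, and 9 rose and 1 fell in wild-type kidney, with median log2 changes of 3.40 and 2.91. Mmp14 and Mmp2, encoding a membrane-bound collagenase and the gelatinase it activates, rose by log2 3.75 and 3.51 under the transgenic label and 3.46 and 3.21 in wild-type kidney. Mmp3, encoding a stromelysin, rose by log2 7.46 under the transgenic label and 5.42 in wild-type kidney, and Mmp9, encoding another gelatinase, by 4.28 and 3.31. In normal kidney Mmp3 summed to 4 counts under the transgenic label and 13 in wild type, and Mmp9 to 15 and 30. These low counts limit the precision of both changes. Adamts4, encoding an aggrecanase, rose by log2 3.33 and 3.38, and Ctsl, encoding cathepsin L, by 1.61 and 1.50, under the transgenic label and in wild-type kidney. Mmp13, named after its value was seen, fell in wild-type kidney at log2 -1.14. None of the ligands, receptors and enzymes passed edgeR's test between genotype labels in either state, which does not show that they were alike.

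Relatives that share the follistatin domain but lie outside the family were 9, of which 6 were tested and 3 rose under each label. The share of all genes that rose was 32.5% under the transgenic label and 31.3% in wild-type kidney. Agrn, encoding the basement membrane proteoglycan agrin, rose by log2 1.13 under the transgenic label and 1.14 in wild-type kidney, and Tmeff1, encoding a transmembrane protein, by 2.94 and 2.53. Fst, encoding follistatin, which binds activins, completed the count under the transgenic label at log2 1.92 (adjusted p = 1.27e-04) and was at -0.28 in wild-type kidney (adjusted p = 0.446, edgeR). Wfikkn2 completed it in wild-type kidney at 1.09 and was at 0.60 under the transgenic label (adjusted p = 0.161, edgeR). Fst averaged 76.1 ± 17.3 CPM in transgenic-label UUO (SD, n = 4), 15.5 ± 8.21 CPM in wild-type UUO, 20.1 ± 5.03 CPM in transgenic-label normal and 18.9 ± 2.47 CPM in wild-type normal kidney. Among these relatives, Fst was the gene that passed the test between labels, in UUO kidney at log2 2.29 (interval 1.66 to 2.92, adjusted p = 0.00332, edgeR), and the difference of responses had an adjusted p of 0.483.

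Most markers of fibroblasts, of mural cells and myofibroblasts, and of macrophages rose after obstruction. Of all genes tested, 32.5% rose under the transgenic label and 31.3% in wild-type kidney. Fibroblast markers (Pdgfra, Dcn, Lum, Gli1 and Fbln1) summed to 288 to 335 CPM in transgenic-label UUO against 50.1 to 94.4 CPM in transgenic-label normal kidney, and to 288 to 397 CPM in wild-type UUO against 71.1 to 149 CPM in wild-type normal kidney, and 5 of 5 rose under each label. Mural and myofibroblast markers summed to 648 to 832 CPM in transgenic-label UUO against 231 to 277 CPM in transgenic-label normal kidney, and to 581 to 976 CPM in wild-type UUO against 201 to 234 CPM in wild-type normal kidney. Of these 6 markers 4 rose under the transgenic label and 5 in wild-type kidney. Macrophage markers summed to 686 to 888 CPM in transgenic-label UUO against 177 to 240 CPM in transgenic-label normal kidney, and to 748 to 836 CPM in wild-type UUO against 175 to 213 CPM in wild-type normal kidney, with 4 of 5 rising under the transgenic label and 5 of 5 in wild-type kidney.

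Markers of endothelium, tubule and podocytes were lower after obstruction for at least some genes, and most of those of urothelium were higher. Of all genes tested, 30.4% fell under the transgenic label and 29.8% in wild-type kidney. Endothelial markers summed to 375 to 403 CPM in transgenic-label UUO against 398 to 535 CPM in transgenic-label normal kidney, and to 350 to 418 CPM in wild-type UUO against 431 to 585 CPM in wild-type normal kidney, with 3 of 6 falling under each label. Cdh5, named after its value was seen, rose under the transgenic label at log2 0.50 (adjusted p = 0.00273, edgeR). In wild-type kidney it was at 0.20 (adjusted p = 0.169, edgeR). Tubule markers summed to 3054 to 3537 CPM in transgenic-label UUO and 2268 to 4736 CPM in wild-type UUO kidney, against 16182 to 20430 CPM in transgenic-label normal and 17342 to 18430 CPM in wild-type normal kidney, and all 6 fell under each label. Podocyte markers summed to 335 to 400 CPM in transgenic-label UUO against 493 to 590 CPM in transgenic-label normal kidney, and to 369 to 446 CPM in wild-type UUO against 447 to 526 CPM in wild-type normal kidney, with 3 of 4 falling and Synpo, named after its value was seen, rising under each label. Urothelial markers summed to 33.7 to 130 CPM in transgenic-label UUO against 3.77 to 9.16 CPM in transgenic-label normal kidney, and to 17.2 to 260 CPM in wild-type UUO against 3.97 to 23.9 CPM in wild-type normal kidney, with 4 of 5 rising under each label. The wild-type sums overlapped between states. Single libraries held the highest sums, wild-type UUO library 1 with the next at 53.1 CPM and transgenic-label UUO library 2 with the next at 42.9 CPM. Adipose, adrenal and skeletal muscle markers summed to at most 9.05, 6.14 and 0.718 CPM in any library. The part of cell numbers in the members' changes was not tested. Between labels in UUO kidney, 0 of 5 fibroblast, 0 of 6 endothelial and 1 of 6 mural markers passed the test, Cspg4 at log2 0.43 (adjusted p = 0.0483, edgeR), named after its value was seen.

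The genes whose profile over the 14 libraries was most like that of a member were found by the root mean square difference of their centred log2 CPM, among 10916 or 10917 genes of sufficient level. For Smoc2 they were Ddr2, encoding a collagen receptor kinase, Olfml3 and Colec12, at 0.336, 0.345 and 0.348. For Sparc they were Loxl3, encoding a lysyl oxidase, Bgn, encoding biglycan, and Emilin1, at 0.148, 0.169 and 0.177. For Fstl1 they were Anxa2, Flna and Fxyd5, at 0.159, 0.164 and 0.184. For Sparcl1 they were Myl9, Rcsd1 and Gm20559, at 0.251, 0.260 and 0.267, and for Spock2 Prr15, Birc3 and Cdh3, at 0.231, 0.257 and 0.266. For the low members the nearest gene was further away, at 0.463 for Smoc1 (Bmf, then Dok1 and Plppr3) and 0.884 for Spock3 (Zfp758, then Slc14a1 and Mcoln3). Smoc1 and Spock3 averaged 0.05 and -1.05 on the log2 CPM scale, against at least 3 for the genes compared. Counting error therefore adds to their distances, by an amount that was not tested.

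Around Smoc2, 29 other genes start within 1 Mb, of which 9 passed the filter. Under the transgenic label 2 of the 9 rose and 1 fell after obstruction, against 62.8% of all genes called in either direction. In wild-type kidney 2 of the 9 rose and none fell, against 61.1% called. Named after their values were seen, the neighbours called were Thbs2, encoding the matrix protein thrombospondin 2, at log2 4.07 under the transgenic label and 3.25 in wild-type kidney, 1600012H06Rik at 0.31 and 0.15, and Gm3222 at -1.78 under the transgenic label. Between labels in UUO kidney Dact2 was higher under the transgenic label at log2 0.59 (adjusted p = 0.0330, edgeR), and in normal kidney none of the 9 was called.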

How the data were processed

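The 14 libraries were messenger RNA from whole mouse kidney, prepared with a stranded kit per the labels' protocols. Per the submitters' processing notes, STAR 2.4.1d and featureCounts 1.4.4 (Subread) were used with build mm10. Neither the annotation nor the strand setting used for counting is given in the sources used here, so antisense reads may be included. Each deposited file holds raw counts per gene as whole numbers, without normalization by the authors. Of 47729 genes, 47310 matched GENCODE M21 by identifier, which gave symbols, coordinates and merged exon lengths, and the other 419 held 0.0288% of counts. Libraries of the same group differed beyond sampling noise, the lowest chi-square per degree of freedom between a pair being 16.9.

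In R 4.3.3, edgeR 4.0.16 (filterByExpr, TMM scaling, glmQLFit and glmQLFTest) fitted group means to all 14 libraries, which left 17926 genes. Its 5 comparisons set UUO against normal for each label, set the labels against each other for each state, and took the interaction. Paralogue ratios used log2 CPM with a prior count of 2. The alternatives were RLE and upper-quartile scaling, no filter, at least 50 counts in 3 libraries, DESeq2 1.42.0, a replicate block, a fit on the compared groups alone, and leaving out each library. The pipeline was tested on simulated data. The labels give no batch.

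The named genes were the 8 members, up to 6 genes per list with the smallest p in wild-type UUO against normal, and the 3 genes most like each member with a mean log2 CPM of at least 3. The members and lists were chosen with earlier results of these data known. Lists are given by counts and medians, with no set test.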

Additional observations from a re-analysis of the deposited data

Results flagged for a closer look

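Of 16 groups of 4 libraries examined (8 members in each UUO group), 2 held a library far from the rest, and chance alone gives about 1 in 20. Smoc2 in transgenic-label UUO library 1 stood at 124 CPM, while libraries 2, 3 and 4 stood at 89.9, 83.9 and 87.1 CPM. Its gap to the nearest library was 0.849 of the group's range, above the critical value of 0.829. Even this library lay below the lowest wild-type UUO library, at 131 CPM. Spock1 in wild-type UUO library 2 stood at 0.135 CPM, which is 4 counts, while libraries 1, 3 and 4 held none. With those libraries at 0, any count in library 2 would be flagged, so the rate of 1 in 20 does not apply to Spock1.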

How the results depend on the processing

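Of 720 values recomputed for the members and comparisons under the alternatives, 699 kept their direction and their side of the threshold, 4 fell short of it, 1 newly passed and 16 reversed. The 6 members that rose after obstruction in wild-type kidney rose under every alternative run. The exceptions under the transgenic label were those of Sparcl1, at log2 0.48 to 0.78 with each library left out. The cause of these changes was not tested.

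The number of genes differing between labels was unstable. In UUO kidney it was 149, against 757 with DESeq2, 69 with the replicate block, 39 with only the groups compared, and 29 to 158 with each library left out, lowest without transgenic-label library 2. In normal kidney it was 5, against 12 without a filter, 172 with DESeq2, 8 with only the groups compared, and 4 to 21 with each library left out, highest without transgenic-label library 1. For the interaction it was 0, against 1 without a filter, 25 with DESeq2, 1 with the replicate block, and 0 to 2 with each library left out. For obstruction all counts stayed within 1.5 times, from 9891 to 11458 under the transgenic label and from 9664 to 11073 in wild-type kidney.

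The values that changed sign did not pass the test before or after. With the replicate block, the Spock3 difference of responses was 0.083. With each library left out, Spock3 ran from -0.11 to 0.60 for transgenic-label UUO against normal, from -0.089 to 1.13 for wild-type UUO against normal and from -0.91 to 0.31 for the difference of responses. Smoc1 ran from -0.073 to 0.35 between labels in UUO kidney, from -0.55 to 0.26 between labels in normal kidney and from -0.070 to 0.74 for the difference of responses. Spock2 ran from -0.26 to 0.31 between labels in normal kidney and from -0.47 to 0.10 for the difference of responses, Smoc2 from -0.55 to 0.43 between labels in normal kidney, and Fstl1 from -0.080 to 0.29 for the difference of responses.

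Deviations of same-numbered libraries from their group means correlated at -0.0898 to 0.132. With 3 or 4 libraries per group, such values cannot tell whether same-numbered libraries belong together, and the labels do not say. The replicate block changed no member's call. The Sparcl1 over Sparc change lay between -1.59 and -1.42, and the Smoc1 over Smoc2 change between -0.68 and -0.04, with each library left out. With a prior count of 0.5 the Smoc pair was at -0.24 and with raw counts plus 1 at -0.36. Depth limits Spock1, Spock3 and Smoc1, whose group sums ran from 4 to 224 counts.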

Other observations

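The Sparcl1 over Sparc ratio differed between labels in a way noticed after its values were seen and not tested. In UUO kidney it was lower in all 4 transgenic-label libraries (-3.94 to -3.59) than in all 4 wild-type libraries (-3.31 to -2.37). In normal kidney it was higher in all 3 transgenic-label libraries (-1.56 to -1.41) than in all 3 wild-type libraries (-2.55 to -1.86).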
